A study of Mus musculus with 3 samples.

Results

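The nuclear-encoded respiratory chain and ATP synthase genes were read out in cells of the vestibule, which senses balance, of the mouse inner ear. The members are the rows annotated as protein-coding whose symbol starts with Nduf, Uqcr, Atp5 or Cox followed by 4 to 8, or equals Sdha, Sdhb, Sdhc, Sdhd, Cyc1 or Cycs. This rule uses names and annotation only, and no measured value. It took 100 of 57180 rows, or 100 of 21608 protein-coding rows. Of these, 46 carry a complex I name, 4 belong to complex II, 9 to complex III, 21 to complex IV and 19 to complex V, and 1 is cytochrome c. The names also bring in 8 complex I assembly factors (Ndufaf1 to Ndufaf8), the supercomplex factor Cox7a2l, the gene copy Cox5b-ps and a second row named Atp5po. Ndufa4 and Ndufa4l2 were counted with complex IV, where the protein of Ndufa4 is now placed.

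The cells were wild-type vestibular cells with the look of black balls, which the labels list as macrophages and immune cells, whereas the title of the series speaks of melanocytes. They gave 3 polyadenylated RNA libraries of 1 group, with no treatment, time point or control, and mouse age is not stated. The labels report 18 cells taken from 9 mice, in groups of 3 mice, and do not say which cells entered which library, so cells are pooled and p-values measure only the spread between libraries, which may be technical. Totals ran from 14095521 to 18460546 counts. Of 18 macrophage markers 15 passed the test described below. Ptprc, which encodes the pan-leukocyte protein CD45, was at 0.360, 0.626 and 0.931 TPM in the libraries labelled 1 to 3 and did not. It had 72, 114 and 166 counts there. Its TPM depends on the deposited gene length, and its level with other lengths is not given here. Of the other lists, 9 of 15 melanocyte, 12 of 12 hair cell, 8 of 9 dark cell, 5 of 7 erythroid and 4 of 10 neuron markers passed. The test passed 50.5% of all protein-coding genes tested, so the melanocyte count is near that share and the neuron count below it. Fewer cells of a type and less RNA per cell cannot be told apart in such pooled samples.

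Complex I takes electrons from NADH and complex II from succinate, and both pass them to ubiquinone. Complex III hands them on to cytochrome c, and complex IV, cytochrome c oxidase, gives them to oxygen. Complexes I, III and IV pump protons across the inner mitochondrial membrane, and complex V, the ATP synthase, lets them flow back and makes ATP. The mitochondrial genome encodes a few central subunits of every complex but II, and the nuclear genes described here encode the rest. Several complex IV subunits have a second gene that is used mainly in muscle, testis or under low oxygen.

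Most members were abundant. Levels are in TPM, the deposited FPKM rescaled to one fixed total per library, which adjusts for the gene length the authors used. Triplets of values are those of replicates 1, 2 and 3, in this order. A gene was called when limma placed its mean log2(TPM + 1) above that of 1 TPM (one-sided, Benjamini-Hochberg over 27265 genes with a count, threshold 0.05). Of the 100 members 94 were called, with adjusted p from limma between 1.30e-05 and 0.00327. The background was 37.6% of all genes tested and 50.5% of the protein-coding genes tested. The median of the members' mean levels was 186 TPM, against 4.55 TPM over protein-coding genes tested. In every library 63 members reached 100 TPM and 88 reached 10 TPM, levels met by 4.37% and 24.3% of protein-coding genes tested. Together the members held 3.06% ± 0.736 of summed TPM (SD, n = 3), made of 2.63%, 2.65% and 3.91% in replicates 1, 2 and 3. Replicate 3 was the highest of the 3, a point taken up below.

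**Figure D1:**
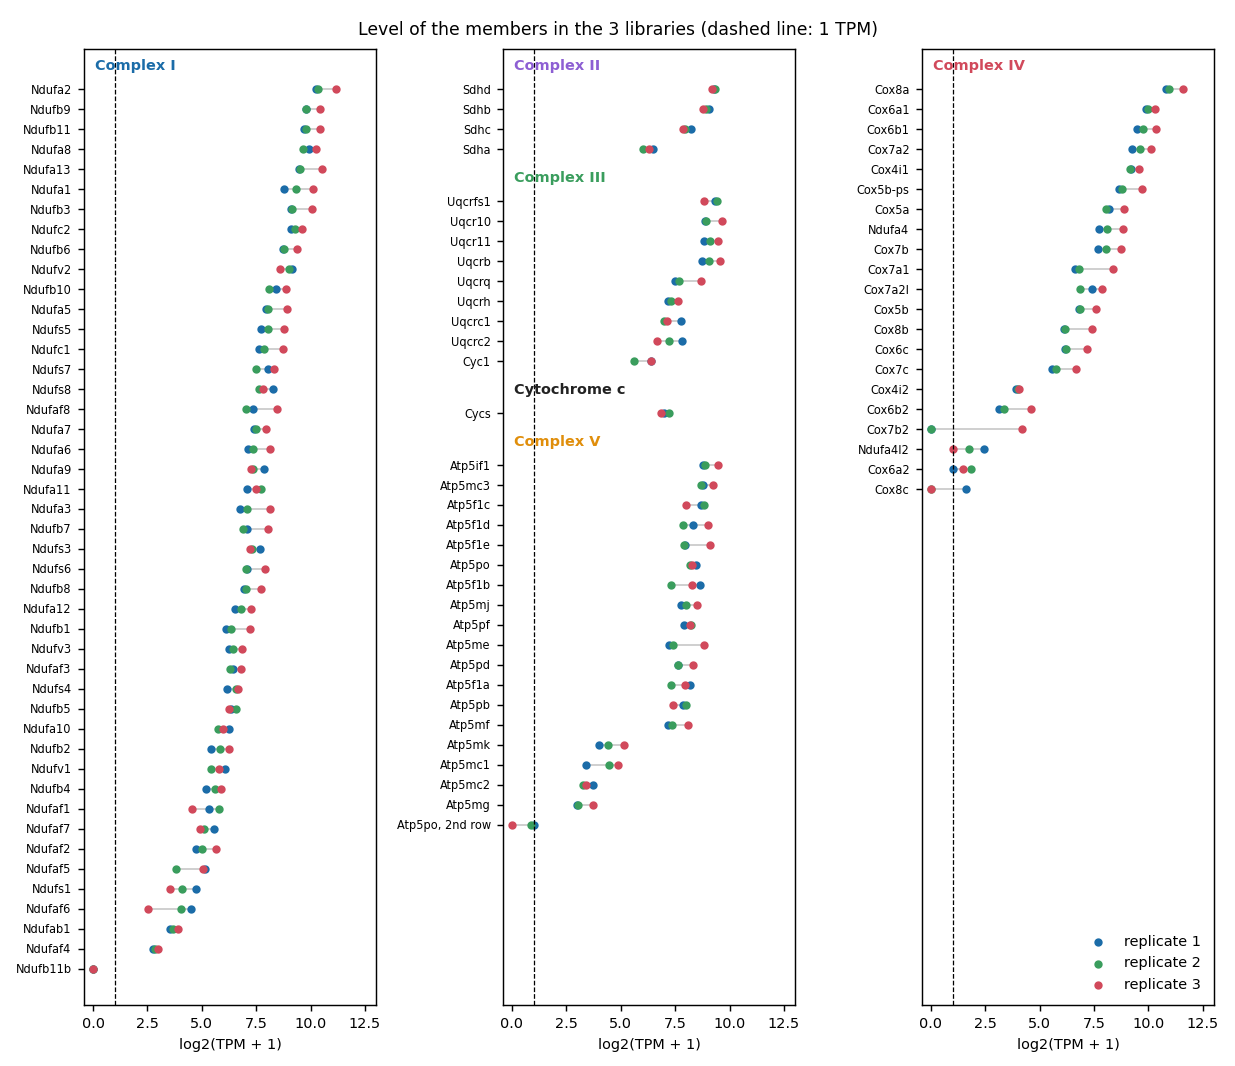
Each row is 1 of 99 members and each point its level in 1 library as log2(TPM + 1), grouped by complex and ordered by mean; the dashed line marks 1 TPM. Most members lie far to the right of the line, the 6 that were not called lie at the foot of their complex, and the replicate 3 point is the highest for most members.

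With the deposited lengths, complex I was led by accessory subunits, which surround the catalytic core. Ndufa2 stood at 1236, 1308 and 2328 TPM. Ndufb9 stood at 877, 884 and 1391 TPM. Ndufb11 stood at 844, 881 and 1382 TPM. Replicate 3 was the highest for all 3 of these, and replicates 1 and 2 differed little. Ndufa8 stood at 981, 797 and 1223 TPM, again with replicate 3 on top. The 30 accessory subunits with a count had mean levels from 12.2 TPM (Ndufab1, the acyl carrier protein of the complex) to 1624 TPM (Ndufa2), and all 30 were called. This span of 133-fold was 57.6-fold with the length of the transcript with the longest coding sequence. With that length Ndufb9 was the highest of them, at 1016 TPM against 952 TPM for Ndufa2. Ndufb11b, a second gene named after Ndufb11 on chromosome 15 (81864741 to 81865764, GRCm39), had 0 counts in each library, which allows up to 0.163, 0.199 and 0.213 CPM (counts scaled by library total) at a floor of 3 counts. In mean CPM the core subunit Ndufv2 was the highest of complex I, at 555 against 543 for Ndufb9 and 415 for Ndufa2.

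The 7 nuclear core subunits carry the flavin and iron-sulfur clusters of the electron path, and their order across libraries differed from that of the accessory subunits. Their median level was 202, 157 and 147 TPM, against 138, 163 and 263 TPM for the 31 accessory subunits, so it was the higher of the 2 in replicate 1 and the lower in replicates 2 and 3. In the NADH module, Ndufv2 stood at 568, 509 and 384 TPM. Ndufv1, which binds NADH and the flavin, stood at 65.9, 42.5 and 54.3 TPM. Ndufs1, the largest iron-sulfur subunit (chromosome 1, 63182755 to 63215992), stood at 25.8, 16.1 and 10.5 TPM. All 3 were highest in replicate 1. In the quinone module, Ndufs7 stood at 262, 178 and 318 TPM, highest in replicate 3. Ndufs8 stood at 304, 196 and 223 TPM and Ndufs3 at 202, 157 and 147 TPM, both highest in replicate 1. Their mean levels spanned 27.9-fold from Ndufs1 to Ndufv2, although the proteins are present once each per complex. That span was 10.3-fold when the length of the transcript with the longest coding sequence replaced the deposited length, so much of it rests on the length used.

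All 8 complex I assembly factors, which help build the complex and are not part of it, were called, at means from 6.29 TPM (Ndufaf4) to 213 TPM (Ndufaf8). Ndufaf8 stood at 161, 132 and 346 TPM. Ndufaf6 stood at 21.4, 15.3 and 4.73 TPM, and its call in limma ended without replicate 1 (adjusted p = 0.0840), without replicate 2 (0.0889) and with no filter on low counts (0.112). Ndufaf5 stood at 34.2, 13.3 and 31.8 TPM. These 3 assembly factors were among the 10 members with the largest spread between libraries, and they did not share an order of libraries.

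Complex II, succinate dehydrogenase, is the complex that also serves the tricarboxylic acid cycle, and all 4 of its subunits were called. The membrane anchor Sdhd stood at 615, 637 and 584 TPM. Sdhc, the other anchor, stood at 299, 246 and 231 TPM. The iron-sulfur subunit Sdhb stood at 524, 486 and 441 TPM. The flavoprotein Sdha stood at 87.9, 63.1 and 78.5 TPM, the lowest of the 4 in every library. No complex II subunit was highest in replicate 3, and the SD of log2(TPM + 1) for Sdhd, 0.06, was the smallest of the members with a mean above 10 TPM. As a share of counts, complex II took 0.152%, 0.151% and 0.151% of the 3 libraries.

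In complex III all 9 members were called. The Rieske iron-sulfur protein Uqcrfs1 stood at 641, 686 and 453 TPM, lowest in replicate 3. The small subunit Uqcr10 stood at 464, 489 and 794 TPM. Uqcr11 stood at 456, 546 and 718 TPM. Uqcrb, which sits near the quinone site, stood at 423, 533 and 761 TPM. All 5 small subunits were highest in replicate 3, whereas the large core proteins Uqcrc1 and Uqcrc2 (means of 159 and 157 TPM) were both highest in replicate 1. Cyc1, the cytochrome c1 subunit, had a mean of 71.4 ± 20.6 TPM (SD, n = 3). Cycs, the soluble cytochrome c that links complexes III and IV, stood at 126, 147 and 116 TPM.

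Complex IV held the most abundant member, Cox8a (chromosome 19, 7192518 to 7194981), at 1801, 1953 and 3063 TPM. It lay 10.11 ± 0.32 (SE) above 1 TPM on the log2(TPM + 1) scale (limma, adjusted p = 1.30e-05) and at percentile 99.8 of protein-coding genes tested. Cox6a1 stood at 957, 995 and 1243 TPM. Cox6b1 stood at 713, 854 and 1303 TPM. Cox7a2 stood at 611, 772 and 1109 TPM. All 11 common subunit forms of complex IV were called and all 11 were highest in replicate 3, with means from 66.1 TPM (Cox7c) to 2272 TPM (Cox8a).

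The tissue-restricted forms asked which version of a subunit these cells transcribe, and the common form was higher than its paralogue in each complex IV pair and library. Cox4i1 stood at 593, 563 and 762 TPM. Cox4i2, the form of lung and of low oxygen (chromosome 2, 152596093 to 152606957), stood at 14.1, 14.9 and 15.6 TPM, from 117 to 122 counts. That is 42.0, 37.8 and 48.9 times less than Cox4i1. Ndufa4 stood at 213, 275 and 449 TPM, while Ndufa4l2, a gene induced by low oxygen, stood at 4.35, 2.35 and 1.01 TPM and was not called (limma, adjusted p = 0.205). Ndufa4 was 49.0, 117 and 446 times higher than Ndufa4l2. The markers of pericytes, cells that use Cox4i2 and Ndufa4l2, were called for 3 of 10 genes and summed to 33.3, 28.4 and 38.3 TPM, with none at 0 in all libraries.

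Forms known from heart and skeletal muscle were split. Cox7a1 (chromosome 7, 29883569 to 29885503) stood at 97.5, 109 and 331 TPM and was called (limma, adjusted p = 7.23e-05). Cox8b (chromosome 7, 140478858 to 140480359) stood at 67.4, 69.9 and 170 TPM and was called too (limma, adjusted p = 5.45e-05). Both were highest in replicate 3, and Cox7a1 made up 13.8%, 12.4% and 23.0% of the TPM of Cox7a1 and Cox7a2 together. Cox8b was 26.7, 28.0 and 18.0 times lower than Cox8a. Cox6a2, the third muscle form, stood at 0.990, 2.61 and 1.78 TPM on 5, 12 and 8 counts and was not called (limma, adjusted p = 0.338), against the Cox6a1 levels given above. Of 12 skeletal and cardiac muscle markers 1 was called, Mb, and the list summed to 11.6, 15.2 and 13.4 TPM. Actc1, Myh4 and Myh7 of that list had 0 counts in all libraries. Brown fat also uses Cox7a1 and Cox8b. Its gene Ucp1 had 159 counts (13.1 TPM) in replicate 1 and 0 in the others. Cidea, a lipid droplet gene of brown fat, stood at 36.1, 7.43 and 6.10 TPM, highest in replicate 1 too. Pvalb, the calcium buffer of fast muscle fibres and of some neurons, stood at 81.1, 96.9 and 438 TPM, highest in replicate 3. So were 67 of the 99 members with a count, Cox7a1 and Cox8b among them. These 3 genes were looked up after the levels of Cox7a1 and Cox8b were seen, and the part of any other cell type in those levels was not tested.

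The testis forms were below their common forms. Cox6b2 stood at 7.73, 9.38 and 23.1 TPM and was called (limma, adjusted p = 0.00159), though not with no filter on low counts (0.0727). Cox6b1 was 92.2, 91.0 and 56.4 times higher with the deposited lengths. The mean log2 difference of this pair was 6.16 there, but 4.33 with the length of the transcript with the longest coding sequence. With that length the mean of Cox6b2 was 56.5 TPM. Cox7b2 (chromosome 5, 71600167 to 71705548) had 0, 0 and 62 counts, or 17.3 TPM in replicate 3, and was not called (limma, adjusted p = 0.624). A count of 0 allows up to 0.163 and 0.199 CPM in replicates 1 and 2. Its common form Cox7b stood at 206, 262 and 430 TPM. Cox8c had 7 counts (2.06 TPM) in replicate 1 and 0 in the others and was not called. Of 8 germ cell markers none was called, and 7 had 0 counts in all libraries (Sycp3 alone had counts). In an exact permutation test that flips the sign of each library's difference (two-sided, 11 pairs with the 3 of the ATP synthase c ring), 10 of the 11 pairs kept 1 direction in 3 of 3 libraries. Each of the 10 had an exact p = 0.25, the smallest value possible here, and an adjusted p of 0.275, so the design cannot reach 0.05.

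**Figure D2:**
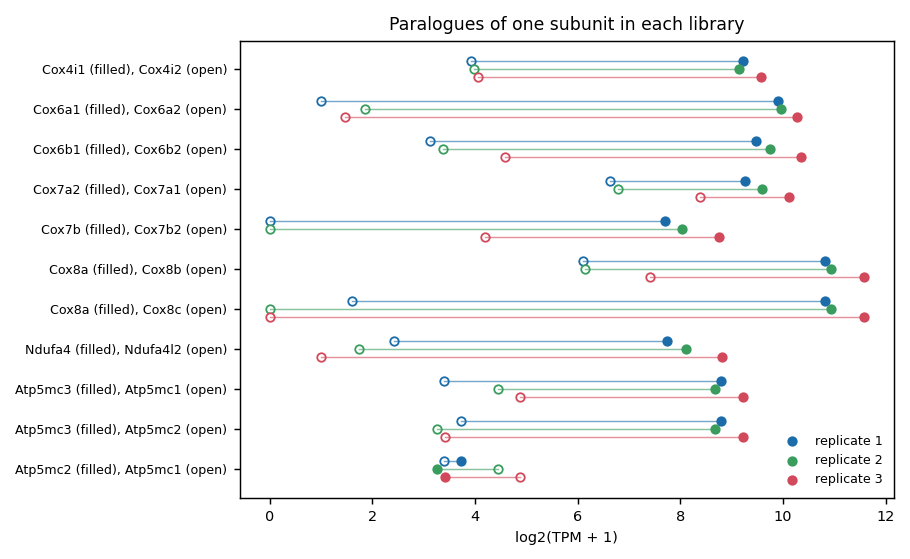
Each line joins the levels of 2 paralogues in 1 library as log2(TPM + 1), the first-named gene filled and the second open. The filled point lies to the right in all 3 libraries for 10 of 11 pairs; Atp5mc2 lies right of Atp5mc1 in replicate 1 alone.

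Cox5b-ps, a copy of Cox5b that the table annotates as protein-coding (chromosome 13, 21685120 to 21685616), stood at 401, 440 and 831 TPM. Cox5b itself (chromosome 1, 36730530 to 36732762) stood at 110, 114 and 193 TPM. In counts the order was the other way, with 2261, 2131 and 3532 for Cox5b against 1479, 1477 and 2732 for the copy, whose deposited length is shorter. The 2 rows share 211 windows of 50 identical bases, and the rule for reads that match several genes is not stated, so the split between them is uncertain.

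Complex V was called for 18 of 19 rows. The row not called was the second Atp5po row (4, 3 and 0 counts), which overlaps the called Atp5po, a peripheral stalk gene at 316 ± 33.8 TPM (SD, n = 3). Atp5if1, the inhibitor that stops the enzyme from running backwards, had the highest mean with the deposited lengths, at 437, 463 and 704 TPM. With transcript lengths its mean of 1015 TPM was below those of Atp5f1e (1220 TPM), Atp5mc3 (1144 TPM) and Atp5pf (1065 TPM), and in CPM Atp5f1b was higher (876 against 415). Atp5mc3, a c ring gene, stood at 441, 409 and 595 TPM with the deposited lengths. There, Atp5if1 and Atp5mc3 were both highest in replicate 3. Among the catalytic head subunits, Atp5f1c, the central shaft, stood at 411, 448 and 252 TPM and Atp5f1d at 318, 228 and 512 TPM. These 2 moved in opposite directions in replicate 3, the first to its lowest and the second to its highest value. The 5 head subunits had means between 232 and 370 TPM, a span of 1.59-fold in TPM with the deposited lengths and of 4.22-fold with transcript lengths. All 5 membrane subunits that hold the dimer together were highest in replicate 3. Of these Atp5me spread most, at 150, 168 and 455 TPM.

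The c ring turns with the proton flow, and 3 genes are known to encode the same mature ring subunit behind different targeting sequences. Their deposited rows were far apart. Atp5mc3 (chromosome 2, 73738791 to 73741670) held 95.3%, 93.3% and 94.0% of the TPM of the 3 genes in replicates 1, 2 and 3. Atp5mc1 (chromosome 11, 95959678 to 95966496) stood at 9.58, 20.97 and 28.5 TPM. Atp5mc2 (chromosome 15, 102571299 to 102580787) stood at 12.3, 8.55 and 9.66 TPM. The order of these 2 differed between libraries (exact sign-flip permutation test, p = 0.5, adjusted p = 0.5, Atp5mc1 higher in 2 of 3). Atp5mc1 was called (limma, adjusted p = 0.000585), but not with no filter on low counts (0.0526).

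The coding sequences show how well reads can tell these 3 genes apart. The first 90 bases of the mature subunit are given from GENCODE M21 transcripts, in capitals where a base differs from Atp5mc3.
Atp5mc3: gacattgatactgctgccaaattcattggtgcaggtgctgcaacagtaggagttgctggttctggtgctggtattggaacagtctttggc
Atp5mc1: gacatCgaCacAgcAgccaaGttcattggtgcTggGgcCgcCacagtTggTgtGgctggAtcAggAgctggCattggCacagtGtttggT
Atp5mc2: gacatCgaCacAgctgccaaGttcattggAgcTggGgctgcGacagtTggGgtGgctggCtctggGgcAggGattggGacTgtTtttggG
Over the last 228 coding bases, Atp5mc1 was 79.8% and Atp5mc2 78.5% identical to Atp5mc3. The longest run shared with Atp5mc3 was 11 bases for Atp5mc1 and 8 bases for Atp5mc2, and Atp5mc1 and Atp5mc2 shared at most 21. No annotated pseudogene shared a 50-base stretch with Atp5mc3.

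Atp5mc1 and Atp5mc2, in contrast, share long stretches with counted pseudogenes. Gm10039, a processed pseudogene with 335 windows of 50 bases in common with Atp5mc1 (chromosome 11, 100252542 to 100252952), had 4509, 4180 and 5821 counts. Atp5mc1 itself had 697, 1388 and 1846. Gm10175, with 596 windows in common with Atp5mc2 (chromosome 7, 23646217 to 23646657), had 4600, 3863 and 3147 counts against 193, 122 and 135 for Atp5mc2. With the pseudogene counts added to the gene, the c ring counts divided quite differently. Atp5mc3 then held 48.4%, 45.3% and 50.7% of them, Atp5mc1 26.8%, 31.7% and 34.5% and Atp5mc2 24.8%, 23.0% and 14.9% in replicates 1, 2 and 3. In own-row counts Atp5mc3 held 91.5%, 84.3% and 85.4%. In counts the order of the 3 genes was the same both ways, and the lead of Atp5mc3 differed with the rows counted.

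The same held for other members. Of the 100 members 39 shared a stretch of 50 bases with 92 annotated pseudogenes, of which 83 had a count. These pseudogenes took 10.1%, 11.3% and 11.5% of the counts on members and pseudogenes together. For 9 members the pseudogenes had more counts than the member's own row in every library: Atp5mc2, Atp5mg, Ndufab1, Atp5mk, Atp5mc1, Cox7c, Ndufb4, Atp5pd and Ndufa12. On average 96.4% of the combined counts lay on pseudogenes for Atp5mc2, 91.5% for Atp5mg, 86.3% for Ndufab1 and 59.2% for Ndufa12. The lowest-placed subunits of several complexes are in this group: Ndufab1 among the accessory subunits of complex I, Cox7c among the common forms of complex IV and Atp5mg among the membrane subunits of complex V. Their low TPM is therefore uncertain, and no read-level data were used here to tell the copies apart.

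**Figure D3:**
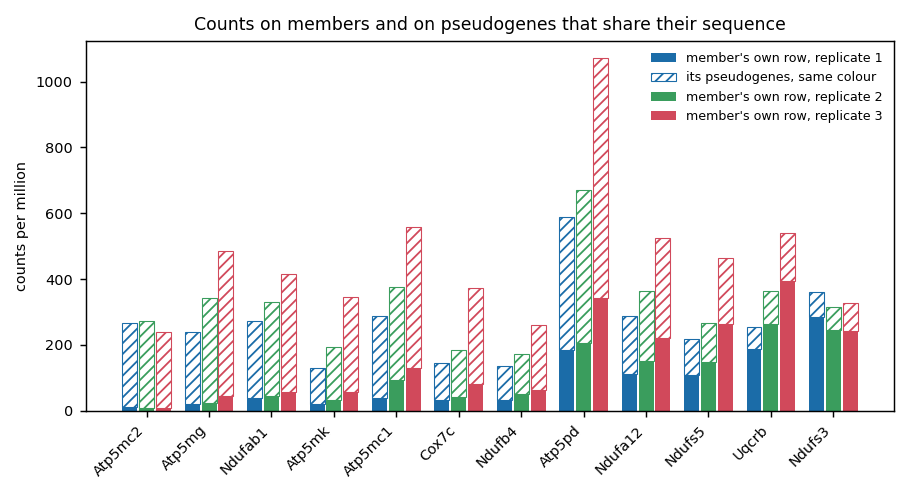
Bars give CPM on a member's own row (filled) and on annotated pseudogenes sharing a 50-base stretch with it (hatched, stacked), for the 12 members with the largest share on pseudogenes, 1 bar per library. The hatched part is the larger for the 9 members from Atp5mc2 to Ndufa12 in each library. Its share differs most between libraries for Atp5mc1 (86.9%, 75.5% and 76.5%) and Ndufs5 (50.2%, 44.2% and 43.2%), and less for the others.

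The gene length behind the deposited FPKM also bears on the order of members. The implied length was longer than the transcript with the longest coding sequence by a median of 2.35 times over 98 members and 1.96 times over 16155 protein-coding genes, and by more than 1.5 times for 80 of the 98. Atp5mg differed most, at 14.3 times. With transcript lengths in its place Cox8a stayed first, at 1975, 2234 and 3450 TPM, followed by Cox4i1, Cox6a1 and Atp5f1e, and the median member stood at 347 TPM against 5.58 for protein-coding genes.

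Across the libraries the members did not vary alike, and their differences followed coding length. Of the 99 members with a count, 67 were highest in replicate 3, where 33.4% of protein-coding genes with a mean of at least 1 TPM were. The accessory subunits of complex I did so in 26 of 30 cases, the 7 core subunits in 2, the common forms of complex IV in 11 of 11 and complex II in 0 of 4. Of the 23 members with at most 300 coding bases and 50 counts in each library, all 23 were higher in replicate 3 than in replicate 1, by a median of 1.06 on the log2(TPM + 1) scale. Among 245 protein-coding genes of that length and count, members included, 62.4% were higher, by a median of 0.31, and 54.7% were highest in replicate 3. Of 32 members with 300 to 500 coding bases 29 were higher, by a median of 0.71. Of 25 with 500 to 1000 bases 13 were, and of 12 with 1000 to 2000 bases 2 were, at a median of -0.28. Ndufs1, with the longest coding sequence, changed by -1.22.

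Over the 93 members with these data, Spearman's rank correlation between coding length and the replicate 3 minus replicate 1 difference was -0.80. Over 9823 protein-coding genes that are no members it was 0.01, though the difference was not flat with length. Over 9916 protein-coding genes, members included, its median fell from 0.31 at up to 300 bases to -0.30 at 500 to 1000. Above 2000 bases the median was -0.12. The points share the same libraries and are not independent, so the coefficient is a description. It was -0.83 over the 55 members that share no stretch with a pseudogene and -0.80 in CPM, which uses no gene length. For replicate 2 minus replicate 1 the correlation was -0.59 over the members, and for replicate 3 minus replicate 2 it was -0.51. With median transcript length in place of coding length, the replicate 3 minus replicate 1 value was weaker, at -0.63.

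Genes of other multi-subunit machines, chosen for comparison after the pattern was seen, differed from the members in degree. The rank correlation was -0.70 over 93 cytosolic ribosomal protein genes, -0.42 over 78 mitochondrial ribosomal protein genes and -0.36 over 38 proteasome subunit genes. Among genes of up to 500 coding bases, the replicate 3 minus replicate 1 difference had a median of 0.85 over 55 members and 0.68 over 51 cytosolic ribosomal protein genes. It was 0.16 over 27 mitochondrial ribosomal protein genes and 0.04 over 975 other protein-coding genes. None of these differences between gene sets was tested.

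**Figure D4:**
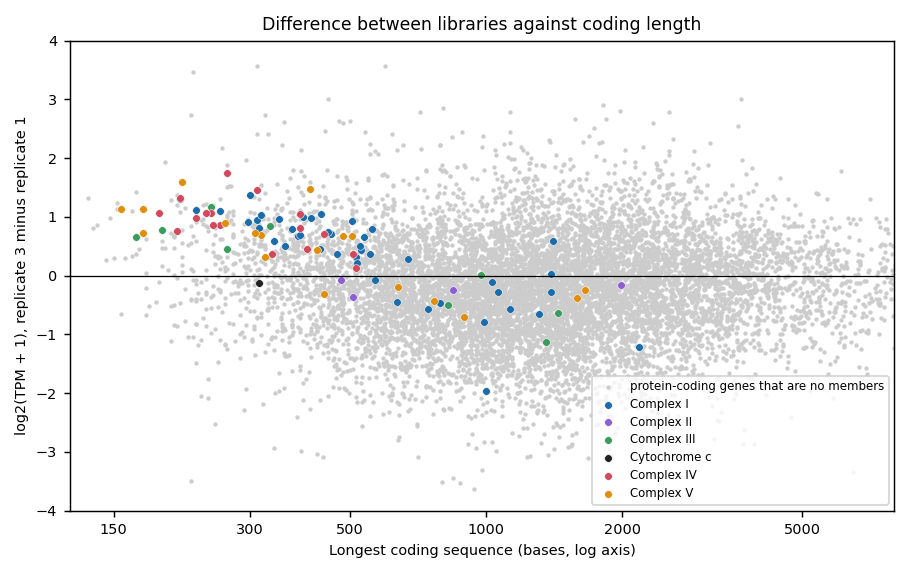
Each point is 1 gene, with the length of its longest coding sequence in bases on a log axis and the replicate 3 minus replicate 1 difference of log2(TPM + 1) on the other. Members, coloured by complex, run from above 0 at short coding lengths to below 0 at long ones. The grey protein-coding genes differ less with length, with medians of 0.04 up to 500 coding bases and -0.24 above (mitochondrially encoded genes left out). Of 9836 grey genes 116 lie outside the axes.

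Other measures differed between the libraries as well. The 10 neuron markers, 4 of them called and none at 0 in all libraries, summed to 81.4, 73.3 and 348 TPM. The 7 erythroid markers summed to 21791, 29998 and 51507 TPM, and the globins took 0.910%, 1.40% and 2.52% of counts. Both sums were highest in replicate 3. The 12 hair cell markers summed to 1168, 807 and 648 TPM and the 18 macrophage markers to 9010, 5794 and 6583 TPM, both highest in replicate 1. The median over the macrophage markers, by contrast, was lowest in replicate 1 at 18.8 TPM, and 9 of the 18 were highest in replicate 3. Annotated pseudogenes as a whole took 6.07%, 6.71% and 6.94% of counts, lowest in replicate 1. Their part in the members' difference was not tested.

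The spread of the members between libraries rested largely on replicate 3. The median SD of log2(TPM + 1) over members was 0.43, against 0.50 over protein-coding genes with a count. Without replicate 3 it was 0.17. The median biological coefficient of variation from edgeR was 0.376 over members and 0.639 over protein-coding genes, and 0.372 against 0.426 among genes with a mean of at least 10 TPM. The 10 members with the largest spread were Cox7b2, Ndufaf6, Cox7a1, Cox8c, Atp5me, Cox6b2, Atp5mc1, Cox8b, Ndufaf8 and Ndufaf5, whose values are given above. The restricted complex IV forms supplied 5 of them.

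Subunits encoded by the mitochondrial genome belong to the same complexes, and their 13 genes were set beside the members. All 13 were called. Their summed TPM was 1.96, 3.99 and 1.12 times that of the 100 nuclear members in replicates 1, 2 and 3, a log2 ratio of 1.04 ± 0.92 (SD, n = 3). The order of the libraries was not that of the nuclear genes. Of the 13 genes 12 were highest in replicate 2, against 23.2% of protein-coding genes with a mean of at least 1 TPM. In replicate 2 the mitochondrially encoded genes took 5.40% of counts, against 2.40% and 2.60% in replicates 1 and 3. The cytochrome b gene mt-Cytb had the highest mean TPM with deposited lengths, at 11044, 23272 and 6505 TPM. In replicate 3 mt-Co1 (7459 TPM) and mt-Nd1 (6942 TPM) were higher, and in counts mt-Co1 was higher in every library. The size of the ratio depends on length: its log2 was 0.16 in CPM and reversed to -0.18 with transcript lengths and to -0.41 with median transcript lengths. Replicate 2 had the highest and replicate 3 the lowest ratio in each of these scalings. By complex, the log2 ratio in TPM with deposited lengths was highest in III and IV (1.93 ± 1.08 and 1.71 ± 0.99, SD, n = 3) and lowest in V (0.00 ± 0.96). Complex V also had the lowest mean ratio in the other scalings, where its log2 was -2.67 in CPM, -1.87 with transcript lengths and -2.11 with median transcript lengths.

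**Figure D5:**
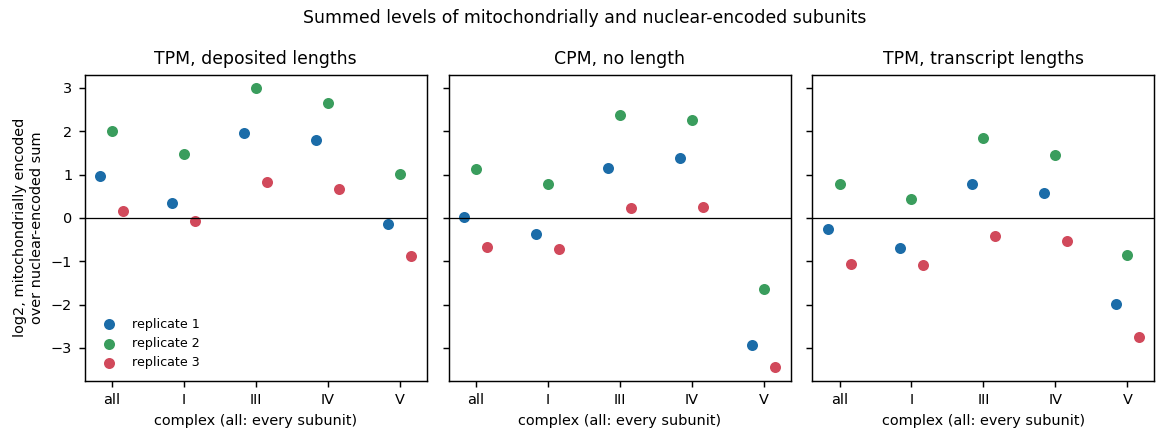
Points give, for each library, the log2 ratio of summed mitochondrially encoded subunits to summed nuclear-encoded members. The members are taken by complex name, so assembly factors and gene copies are included. Ratios are over all complexes and by complex, in TPM with deposited lengths, in CPM and in TPM with transcript lengths. Replicate 2 is the highest and replicate 3 the lowest in every column, and the height of the columns against 0 shifts with the scaling.

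Promoter sequences of the members were set beside those of all protein-coding genes, since the members stood at high levels together. RefSeq promoter windows (GRCm38.p6, 250 bases before to 50 after the start) matched 79 of 100 members, with 84 windows. Each motif was searched on both strands. The NRF1 motif GCATGCGC was in 15.5% of the members' windows and in 3.52% of 21263 windows of protein-coding genes. The YY1 motif AAGATGGC was in 13.1% and 3.05%, and the ETS motif CCGGAAG, to which GABP binds, in 22.6% and 11.6%. TATAAA was in 10.7% and 12.6%. The median number of CpG dinucleotides in a window was 19.5 and 13. These counts describe letters and not binding.

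Windows are shown for the highest complex IV gene and its muscle paralogue, and for the highest and lowest c ring rows. Windows run from 130 bases before to 30 after the start, on the gene's own strand, with motif letters in capitals: the ETS motif in Cox8a (chr19:7217587-7217746, minus strand), TATAAA in Cox8b (chr7:140900417-140900576, minus), NRF1 in Atp5mc2 (chr15:102671018-102671177, minus) and none of the 4 in Atp5mc3 (chr2:73911297-73911456, minus).
Cox8a: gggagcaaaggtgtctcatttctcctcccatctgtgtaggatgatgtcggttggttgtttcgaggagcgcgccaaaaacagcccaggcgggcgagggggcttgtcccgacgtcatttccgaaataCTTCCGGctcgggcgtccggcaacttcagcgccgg
Cox8b: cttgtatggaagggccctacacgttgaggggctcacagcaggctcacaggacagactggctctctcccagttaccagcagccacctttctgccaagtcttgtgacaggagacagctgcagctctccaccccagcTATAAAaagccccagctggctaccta
Atp5mc2: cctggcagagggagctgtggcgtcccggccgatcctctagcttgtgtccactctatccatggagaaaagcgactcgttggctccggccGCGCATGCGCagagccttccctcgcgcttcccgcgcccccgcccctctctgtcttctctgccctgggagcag
Atp5mc3: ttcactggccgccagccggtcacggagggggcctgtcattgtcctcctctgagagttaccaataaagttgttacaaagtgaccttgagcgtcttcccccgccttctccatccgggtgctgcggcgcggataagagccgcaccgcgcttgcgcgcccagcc
The Cox8a window held 15 CpG and the Cox8b window 1. The TATAAA of the Cox8b window lay after the annotated start. None of the 4 restricted complex IV forms with a window held the NRF1, ETS or YY1 letters, and 2 of the 4 held TATAAA. The common forms Cox5a, Cox5b, Cox7a2, Cox7b, Cox7c and Ndufa4 held none of these 3 motifs either, whereas Cox6a1, Cox6b1 and Cox8a did. So few windows cannot tell the restricted from the common forms. Atp5mc3, whose row was 35.8, 47.9 and 61.6 times higher than that of Atp5mc2 in TPM, had none of the 4 motifs in the window shown.

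In most lists of the wider pathway most genes were called, and the regulators were near the share of protein-coding genes. Of 34 assembly factors of complexes II to V, 30 were called, led by Coa3 at 749 ± 192 TPM (SD, n = 3), and Pet117, Atpaf1, Sco1 and Lyrm7 were not. Of 13 tricarboxylic acid cycle genes 12 were called, with Mdh2, the malate dehydrogenase, highest at 240 ± 67.7 TPM. These genes have a median coding length of 1362 bases. Of the 13, 12 were highest in replicate 1, against 43.4% of protein-coding genes with a mean of at least 1 TPM. A part of coding length in this was not tested. All 6 carriers of ATP, phosphate and the outer membrane pore were called, with the ADP/ATP carrier Slc25a4 at 2097, 1819 and 2132 TPM. Of 8 other donors of electrons to ubiquinone 7 were called, led by the electron transfer flavoprotein subunit Etfb at 387 ± 57.5 TPM. Of 11 regulators of respiratory genes 5 were called, a share near the 50.5% of protein-coding genes called. These were Tfam, which packages mitochondrial DNA, at 24.7 ± 8.51 TPM, Yy1, Tfb2m, Gabpa and the coactivator Ppargc1a at 5.10 ± 0.694 TPM. The transcription factor gene Nrf1, at 3.21, 3.28 and 2.40 TPM on 433, 403 and 289 counts, was not among them. The TPM of the regulators depends on the deposited gene lengths, and their levels with other lengths are not given here.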

How the data were processed

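Polyadenylated RNA of 3 vestibular libraries was copied and amplified with the SMART-Seq HT kit, per the labels' protocols. The deposited table gives raw counts per gene and FPKM made from them, per the file headers. HISAT2, StringTie, edgeR and the GRCm39 build are named, per the submitters' processing notes, with neither versions nor roles. The counting tool, use of strand and treatment of reads that match several genes are not given in the sources used here. Deposited FPKM equalled count over a fixed gene length and the library total, to within 0.0528%.

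FPKM was rescaled to TPM and analysed as log2(TPM + 1), a scale that understates differences between low genes. The 27265 genes counted in 1 or more libraries were tested against 1 TPM in limma 3.58.1 (intercept-only model, mean-variance trend, R 4.3.3), checked on simulated data. The simulation gave all genes a common spread that was not fitted to these libraries, so it cannot give the error rate here. Dispersions came from edgeR 4.0.16 on the counts. Paralogues were compared by an exact sign-flip permutation test. GENCODE M21 transcripts (GRCm38) were matched by Ensembl identifier for all 100 members, 99 of them with a coding length, and gave lengths, shared 50-base stretches and coding sequence. Promoters came from RefSeq on GRCm38.p6. Gene positions are the table's, on GRCm39, and the builds were not mixed. Floors of 3 counts cover counting error only, since the counts are not marked by molecular identifiers.

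The members and gene lists were chosen with earlier results of these data known. Values in every library are given for the 4 most abundant members of each complex, the paralogue pairs, the core subunits of complex I, complex II, cytochrome c, the inhibitor, the members not called and the 10 with the largest spread. The values of 1 member are not reported here. The alternatives tried were other pseudocounts, scalings (CPM, edgeR's TMM, DESeq2 1.42.0 size factors, other totals), filters, lengths, pseudogenes included, and leaving out each library.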

Additional observations from a re-analysis of the deposited data

How the results depend on the processing

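The count of members called above 1 TPM stayed between 91 and 94 of 100 under every setting run, and the calls lost were those of Ndufaf6, Atp5mc1 and Cox6b2. Over all genes the calls numbered 10264, but 6924 with no filter on low counts and 6794 without replicate 1. The share of summed TPM held by the members, 3.06%, was 4.48% of the total of protein-coding genes and 5.29% with the pseudogenes that share a 50-base stretch. It was 4.0% with the median GENCODE M21 transcript length and 4.20% with the transcript of the longest coding sequence. The last 3 settings were chosen after seeing the data, and the lengths and rows summed differ by construction. The median SD between libraries of 0.43 ranged from 0.169 to 0.497 when 1 library was left out, lowest without replicate 3. The log2 ratio of mitochondrially to nuclear-encoded sums, 1.04, turned to -0.41 and -0.18 with the same 2 lengths, and ranged from 0.57 to 1.48 when 1 library was left out. The number of paralogue pairs with 1 direction in every library stayed at 10 or 11 of 11 in all settings run. The size of their differences moved with the length used. With the transcript of the longest coding sequence, the mean log2 difference went from 6.16 to 4.33 for Cox6b1 and Cox6b2. For Cox4i1 and Cox4i2 it went from 5.32 to 6.45, and for Cox8a and Cox8b from 4.56 to 5.48. No paired analysis was possible because the 3 libraries form 1 group, so no groups share replicate numbers. Few cells stand behind each library, and sequencing depth does not reduce the spread that amplification adds.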
